A study of Rattus norvegicus with 6 samples.

Results

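Endothelial and angiogenic genes were examined in the thyroid of rats in late pregnancy. They were chosen by gene symbol, with earlier results of these data known, as 10 genes that mark blood vessel endothelium or carry vascular growth signals: Pecam1, Cdh5, Emcn, Vwf, Kdr, Flt1, Tek, Tie1, Vegfa and Angpt2. Of these, 9 had a row among the 15388 genes of the count tables, and Pecam1 was not analysed here. Thyroid RNA came from adult Sprague-Dawley rats, an outbred laboratory strain, either non-pregnant (NP, 3 samples) or on day 18 of pregnancy counted from the vaginal plug (late pregnancy, LP, 3 samples). Polyadenylated RNA was sequenced, and the deposited value of a gene is its number of reads. Levels are given as CPM, the read count relative to the library size after TMM scaling, which sets the library sizes on the genes that change least. CPM was not corrected for gene length, so levels are compared between samples of a gene and not between genes.

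Thyroid follicles are wrapped in a dense net of fenestrated capillaries, through which iodide arrives and hormone leaves. Vascular endothelial growth factor A (Vegfa) is released by epithelial and other cells and acts on endothelial cells through the receptor tyrosine kinases Kdr (VEGFR2), the main signalling receptor, and Flt1 (VEGFR1), which binds the ligand tightly and limits its access to Kdr. Angiopoietins act through a further endothelial receptor, Tek (TIE2), with Tie1 as its partner. Angpt2, made by endothelial cells themselves, acts on Tek in a context-dependent way and is linked to vessel remodelling.

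Counted reads summed to between 2752144 and 3449857 per sample, and the floor of detection, set at 3 reads, lay between 0.889 and 1.07 CPM (counting error only). Thyroglobulin (Tg), the defining follicular product, took between 22.9% and 24.5% of the reads. Replicate 2 could not be distinguished from replicate 3 beyond counting noise in NP (chi-square per degree of freedom 1.02, p = 0.111 over 12446 genes) and in LP (0.995, p = 0.667 over 12860 genes). The pair was counted as 1 sample, so every mean ± SD has n = 2, replicate 1 being the other sample. Replicate 1 stood apart from this pair in both groups. The smooth muscle genes Acta2, Myh11, Tagln and Cnn1 were low there, and Myh11 had 266 reads in NP replicate 1 (1872 and 1897 in the other NP samples) and 220 in LP replicate 1 (2110 and 1990 in the other LP samples). The fits used all 6 samples as deposited, so replicates 2 and 3 entered them as separate samples. Their p-values, SE and intervals measure only the spread between these samples. They can be too small if that pair is 1 sample.

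The effect of late pregnancy was tested with the quasi-likelihood method of edgeR, and p-values were adjusted by Benjamini-Hochberg across the 11738 genes left after low counts were filtered out. A gene is said to have risen or fallen when its adjusted p-value was below 0.05. All 9 measured genes passed the filter. Emcn, Kdr, Flt1, Tek, Tie1 and Vegfa fell in LP, 6 of the 9, where 11.7% of all genes tested fell and 27.0% changed in either direction. None rose, where 15.3% of all genes did (0 of 9 also at an unadjusted p-value below 0.05, and 0 with DESeq2 in place of edgeR, which called 5 lower). The median log2 fold change (log2FC, LP over NP) of the 9 genes was -0.31, against -0.0089 over all genes tested. In 7 of the 9 genes every LP sample lay below every NP sample, an arrangement found in 18.9% of all genes tested. When replicates 2 and 3 were summed, 5 of the 9 genes fell, where 8.36% of all genes did. The adjusted p-values by edgeR were then 0.00136 for Flt1, 0.00116 for Emcn, 0.00126 for Tek, 0.00797 for Kdr and 0.0390 for Tie1. Each was larger than in the fit of all 6 samples. Because replicate 1 stood apart, LP was also set against NP within replicate 1 and within replicates 2 and 3. In 8 of the 9 genes the sign was the same in both, the exception being Cdh5, and the log2 differences were -0.69 and -0.55 for Emcn, -0.42 and -0.47 for Flt1, -0.61 and -0.44 for Tek and -0.16 and -0.09 for Vegfa. No change reached the 2-fold cutoff of the study, which 0.537% of all genes passed downward and 4.90% upward. A lower CPM in whole tissue can come from fewer endothelial cells, from less RNA per endothelial cell or from more RNA of other cells. These cannot be told apart here, and Vegfa is also released by epithelial and other cells.

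**Figure D1:**
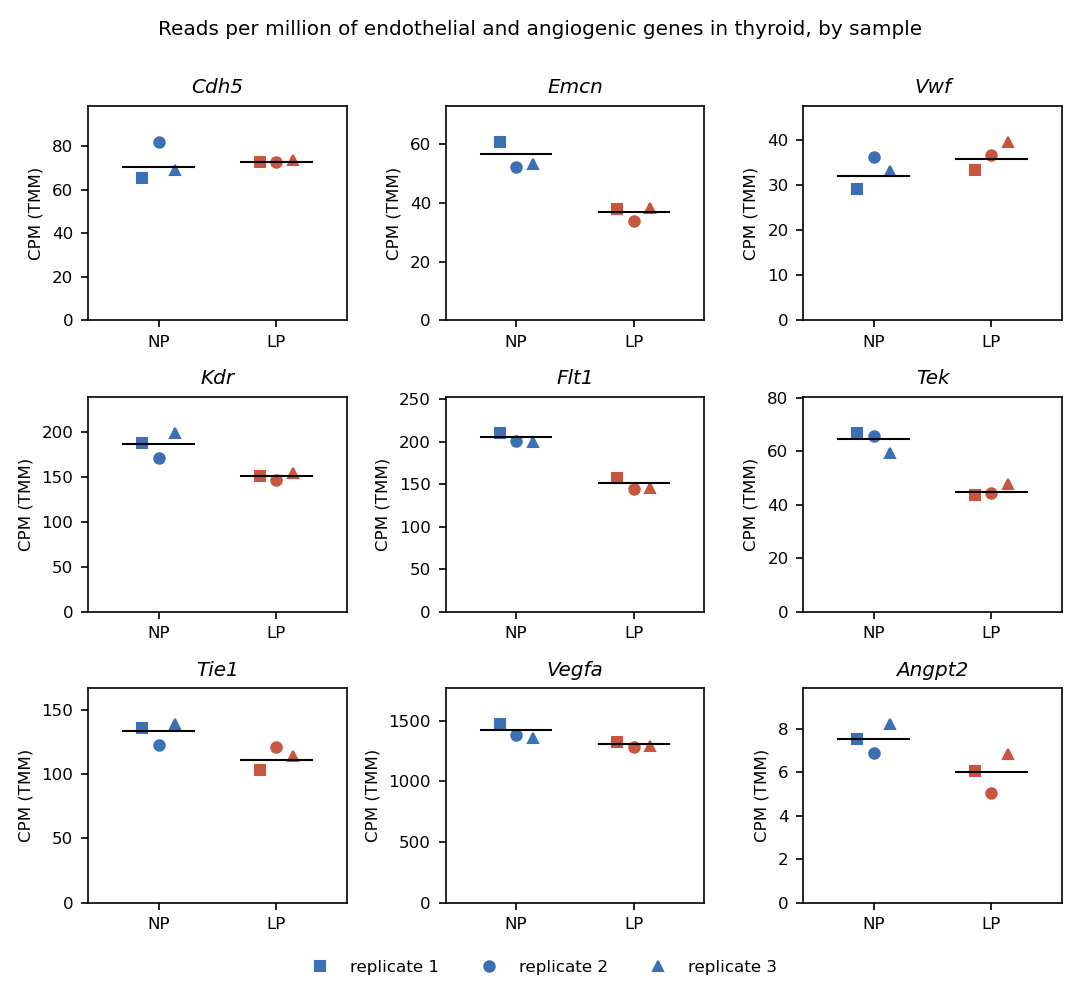
CPM (y axis, TMM-scaled, from 0) of the 9 measured genes in each NP (blue) and LP (red) thyroid sample, with symbols for replicates 1 to 3 and a black line at the group mean in which replicates 2 and 3 count as 1 sample. Emcn, Flt1, Kdr and Tek show a clear gap between the groups, while Cdh5 and Vwf overlap.

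Of the genes of the endothelial surface and junctions, Emcn fell, and Cdh5 and Vwf did not pass the test. Emcn (ENSRNOT00000035700) encodes endomucin, a sialomucin of capillary and venous endothelium. It measured 60.8, 52.1 and 53.2 CPM in NP replicates 1, 2 and 3 and 37.7, 33.8 and 38.3 CPM in LP replicates 1, 2 and 3. The highest LP sample lay well below the lowest NP sample. Emcn fell from 56.7 ± 5.7 CPM (SD, n = 2) to 36.9 ± 1.2 CPM, log2FC -0.59 (SE 0.096, adjusted p = 0.000132), that is -33.7%.

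Cdh5 (ENSRNOT00000086995) encodes VE-cadherin, the adhesion protein of endothelial junctions. Its level was 65.4, 82.2 and 69.3 CPM in NP and 72.8, 72.6 and 73.9 CPM in LP, so the LP samples lay inside the NP range. Its log2FC was 0.01 with a 95% interval from -0.16 to 0.19 (adjusted p = 0.93 by edgeR), which leaves out a fall of the size seen for Emcn. Within replicate 1 the LP to NP difference was 0.16 on the log2 scale, and within replicates 2 and 3 it was -0.05.

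Vwf (ENSRNOT00000026643) encodes von Willebrand factor, the clotting protein stored in endothelial granules. It measured 29.3, 36.4 and 33.2 CPM in NP and 33.5, 36.8 and 39.8 CPM in LP. The groups overlapped, and the log2FC of 0.15 had a 95% interval from -0.08 to 0.39 (adjusted p = 0.353 by edgeR).

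Both VEGF receptors fell. For Flt1 (ENSRNOT00000001248), 589, 613 and 608 reads were counted in NP replicates 1, 2 and 3 and 492, 486 and 492 in the corresponding LP samples, although the LP libraries were the larger ones. On the CPM scale these were 211, 201 and 200 against 157, 144 and 146. The groups did not overlap, and the gap between them was wider than the spread inside either. Flt1 fell from 205 ± 7.3 to 151 ± 8.6 CPM (SD, n = 2), log2FC -0.45 (SE 0.059, adjusted p = 1.33e-05), or -26.8%.

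Kdr (ENSRNOT00000071405) measured 189, 172 and 200 CPM in NP and 151, 147 and 154 CPM in LP, again without overlap. It fell from 187 ± 2.1 to 151 ± 0.53 CPM (SD, n = 2), log2FC -0.31 (SE 0.063, adjusted p = 0.0013), or -19.2%. The difference was close to the same in replicate 1 (-0.32) and in replicates 2 and 3 (-0.30).

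The TIE receptors fell too. Tek (ENSRNOT00000032248) measured 66.8, 65.5 and 59.1 CPM in NP and 43.8, 44.2 and 47.8 CPM in LP. The groups were well separated, and its log2FC was -0.49 (SE 0.083, adjusted p = 0.000213), or -29.0%. Tie1 (ENSRNOT00000027414) measured 135, 123 and 139 CPM in NP and 104, 121 and 114 CPM in LP, where LP replicate 2 came close to NP replicate 2. Its log2FC was -0.23 (SE 0.069, adjusted p = 0.0204), or -14.6%, with -0.39 in replicate 1 and -0.15 in replicates 2 and 3. The Tie1 call was lost with DESeq2 (adjusted p = 0.0997) and without NP replicate 3 (0.0811), LP replicate 1 (0.0688) or LP replicate 3 (0.0504). Whether Tek and Tie1 differed in their change was not tested.

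Of the ligands, Vegfa fell slightly and Angpt2 did not pass the test. Vegfa (ENSRNOT00000026637) had the most reads of the 9 genes, between 4123 and 4366 per sample. It measured 1474, 1382 and 1356 CPM in NP and 1323, 1283 and 1295 CPM in LP. The highest LP sample lay just below the lowest NP sample. Its log2FC was -0.11 (SE 0.039, adjusted p = 0.0448), or -7.34%, at the edge of the threshold. The call was lost when replicates 2 and 3 were summed (adjusted p = 0.127 by edgeR) and without NP replicate 1 (0.186), NP replicate 2 (0.0504), LP replicate 2 (0.133) or LP replicate 3 (0.113).

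Angpt2 (ENSRNOT00000022774) was sparsely counted, with 21, 21 and 25 reads (NP) and 19, 17 and 23 reads (LP). In CPM these were 7.51, 6.88 and 8.21 against 6.07, 5.04 and 6.82, all LP samples lying below the NP samples by a narrow margin. Its log2FC was -0.33, but its 95% interval ran from -0.84 to 0.18 (adjusted p = 0.362 by edgeR), so a difference was not detectable at this depth.

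RefSeq sequence just before the annotated start was found for 5 of the 10 genes (Emcn, Kdr, Flt1, Tie1 and Vegfa). The 250 bases of Flt1, Kdr and Emcn are shown because these genes fell under each setting tried. ETS factors, which many endothelial genes carry sites for, bind around the letters GGAA, and in the lines here each GGAA on either strand (TTCC on the printed strand) is in capitals. The build is GRCr8, whereas the counts were made on rn5. Flt1 lies at chr12:12333180-12333429 on the plus strand, Kdr at chr14:32571813-32572062 on the plus strand and Emcn at chr2:228564289-228564538 on the plus strand. Sequences run 5′ to 3′ along the gene.
Flt1: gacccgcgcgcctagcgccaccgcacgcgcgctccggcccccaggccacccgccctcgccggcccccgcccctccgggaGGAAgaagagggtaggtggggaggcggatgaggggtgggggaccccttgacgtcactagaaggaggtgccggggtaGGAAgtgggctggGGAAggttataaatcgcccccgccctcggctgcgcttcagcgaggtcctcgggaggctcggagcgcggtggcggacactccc
Kdr: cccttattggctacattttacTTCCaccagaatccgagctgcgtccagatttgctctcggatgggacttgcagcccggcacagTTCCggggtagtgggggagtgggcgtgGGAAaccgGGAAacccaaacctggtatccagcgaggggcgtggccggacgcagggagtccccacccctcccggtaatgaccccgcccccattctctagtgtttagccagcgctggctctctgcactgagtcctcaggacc
Emcn: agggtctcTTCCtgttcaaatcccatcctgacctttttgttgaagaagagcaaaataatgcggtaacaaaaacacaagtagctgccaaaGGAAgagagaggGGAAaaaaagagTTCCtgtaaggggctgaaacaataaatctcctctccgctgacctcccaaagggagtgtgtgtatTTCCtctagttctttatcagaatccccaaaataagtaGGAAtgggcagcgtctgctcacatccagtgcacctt

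GGAA occurred in 5 of the 5 sequences, and it occurs in 93.2% of all 27457 rat promoter windows of this length, so it does not set them apart. The longer form AGGAAG, which overlaps it, was found in Emcn, Tie1 and Flt1, against 29.4% of all windows. On both strands, the core letters of the hypoxia response element were searched as ACGTG, found in 0 of the 5 (16.9% of all windows, and 22.4% of those of genes tested), and as GCGTG, found in Flt1 and Kdr (27.2% of all windows, and 45.3% of the windows of genes tested here). A match is letters in a window and not a bound site.

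Other ligands and receptors of the same pathways were read from a list of 10 genes, of which 9 passed the filter. In LP, 4 of them fell (Pgf, Nrp1, Ptprb and Flt4) and 1 rose (Vegfb), with a median log2FC of -0.23. The calls made up 55.6% of the genes that passed the filter, against 27.0% of all genes tested. Pgf (ENSRNOT00000007790), placental growth factor, a ligand of Flt1, had 256, 237 and 298 reads (NP) and 109, 123 and 130 reads (LP). It fell from 89.6 ± 2.7 to 36.2 ± 1.9 CPM (SD, n = 2), log2FC -1.28 (SE 0.094, adjusted p = 1.03e-08), the 1 gene of this list past the 2-fold cutoff. Nrp1 (ENSRNOT00000014492), neuropilin 1, a co-receptor that binds VEGF together with Kdr, measured 171, 176 and 147 CPM in NP and 103, 98.7 and 99.4 CPM in LP, log2FC -0.71 (SE 0.068, adjusted p = 3.05e-07).

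Ptprb (ENSRNOT00000085231), the endothelial phosphatase VE-PTP that acts on Tek, fell from 90.3 ± 4.2 to 60.3 ± 0.31 CPM (SD, n = 2), log2FC -0.56 (adjusted p = 9.83e-06 by edgeR). Flt4 (ENSRNOT00000003519), VEGFR3, a receptor of lymphatic and some other vessels, fell from 33.3 ± 3.5 to 23.3 ± 0.46 CPM with a log2FC of -0.48 (adjusted p = 0.0054, and 0.0671 with DESeq2). Vegfb (ENSRNOT00000050891), a ligand of Flt1 and Nrp1, moved the other way. Its counts were 149, 137 and 148 in NP and 259, 224 and 264 in LP, log2FC 0.63 (SE 0.093, adjusted p = 5.09e-05).

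The remaining genes of the list did not pass the test. Angpt4 had a log2FC of -0.23 (adjusted p = 0.0539 by edgeR, and 0.0305 with the replicate number as a block). Vegfc, the ligand of Flt4, had -0.09, Nrp2 had 0.09 and Angpt1, the activating ligand of Tek, had 0.43 with 5 to 16 reads per sample. Figf, also called Vegfd, had 0 to 5 reads per sample and was below the filter.

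**Figure D2:**
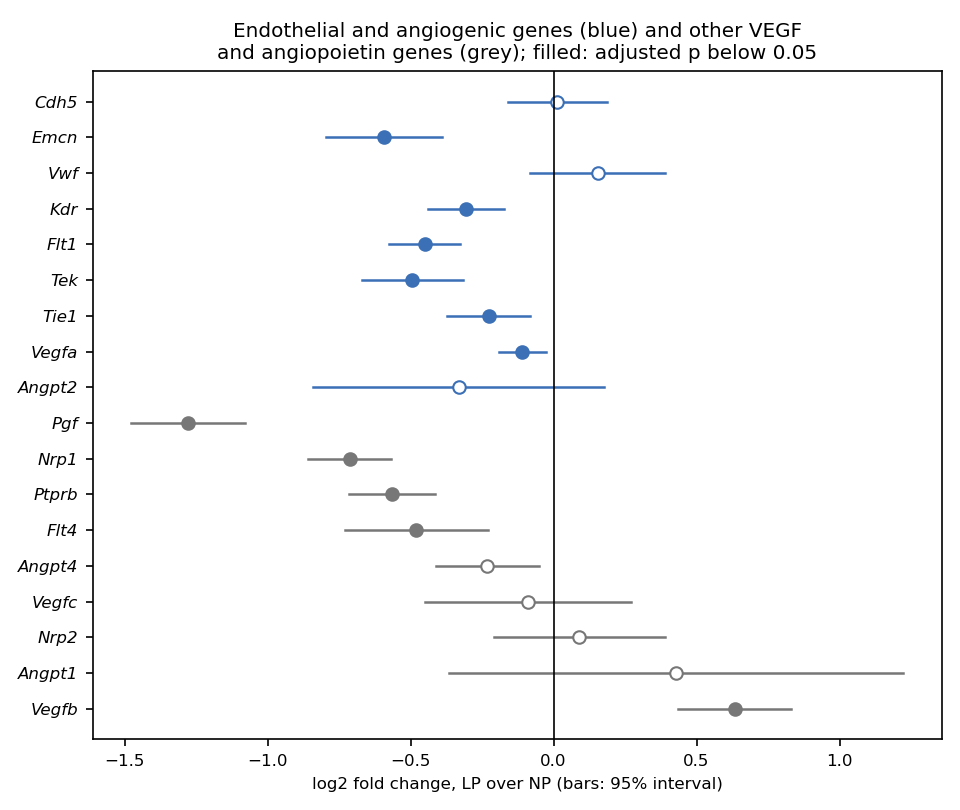
Log2 fold change of LP over NP (x axis) with its 95% interval for the 9 measured genes (blue) and the other VEGF and angiopoietin genes that passed the filter (grey), filled where the adjusted p-value was below 0.05. Pgf lies furthest to the left at -1.28, Vegfb furthest to the right among the filled points at 0.63, and the blue receptors lie between -0.49 and -0.23.

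A broader list of 35 endothelial genes was used to see whether endothelial RNA moved as a block. Of the 31 that passed the filter, 7 fell, 2 rose and 22 did not pass the test, with a median log2FC of -0.15 and 20 of the 31 below 0. The calls made up 29.0% of these genes, close to the 27.0% among all genes tested, of which 11.7% fell and 15.3% rose. Cyyr1 fell by 0.64 on the log2 scale (adjusted p = 9.66e-05 by edgeR). Cd34, a sialomucin of capillary endothelium, fell from 145 ± 0.27 to 113 ± 2.1 CPM (SD, n = 2), log2FC -0.36 (adjusted p = 0.000128 by edgeR). Sox18, a transcription factor of vascular development, fell from 37.0 ± 3.8 to 22.2 ± 2.0 CPM, with -0.66 (adjusted p = 0.0013 by edgeR). Eng, endoglin, a co-receptor for TGF-beta family ligands, went the other way, from 172 ± 0.44 to 206 ± 4.6 CPM, with 0.26 (adjusted p = 0.00209 by edgeR). The other gene that rose was Robo4, a guidance receptor of endothelium, with 2 to 7 reads in NP and 12 to 15 in LP and log2FC 1.32 (adjusted p = 0.0202 by edgeR). It did not pass with DESeq2 (0.139), with replicates 2 and 3 summed (0.0554) or without NP replicate 1, LP replicate 1 or LP replicate 3 (up to 0.0921). The summed level of the list was 1591 to 1651 CPM in NP and 1469 to 1525 CPM in LP. The count of 7 that fell was 4 with DESeq2 and 4 without LP replicate 3. With replicates 2 and 3 summed, 4 genes fell and 1 rose, where 8.36% of all genes fell and 12.3% rose. With the replicate number as a block, 11 fell and 3 rose, where 14.7% of all genes fell and 17.5% rose.

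The 9 genes were then scaled to this broader list, with each library size set by its summed reads. Plvap, a protein of the diaphragms of fenestrated endothelium, made up 34.9% of that sum and itself had a log2FC of -0.15 under TMM scaling (adjusted p = 0.0224, and 0.0712 with replicates 2 and 3 summed, by edgeR). This scaling moves the median of all genes to 0.11, and 5.26% of all genes then fell and 22.5% rose. Relative to the other endothelial genes, Emcn still fell by 0.47 (SE 0.097, adjusted p = 0.000919), Tek by 0.37 (0.087, adjusted p = 0.0028), Flt1 by 0.33 (0.066, adjusted p = 0.000746) and Kdr by 0.19 (0.065, adjusted p = 0.0374) on the log2 scale by edgeR. Tie1, at -0.11 (adjusted p = 0.273), and Vegfa, at 0.01 (adjusted p = 0.906), no longer passed the test. The scaled fit kept replicates 2 and 3 as separate samples, and this scaling was not run with that pair summed.

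**Figure D3:**
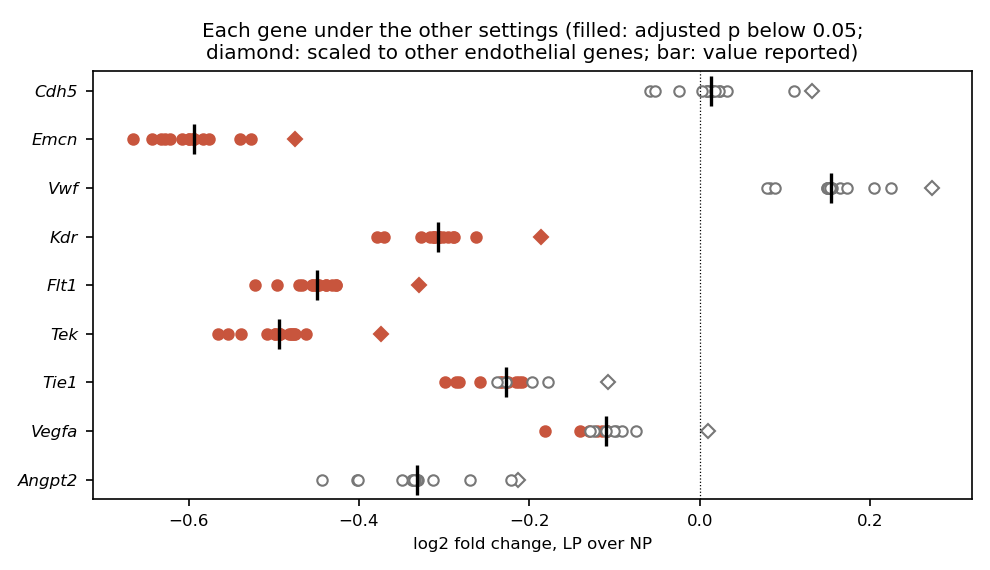
Log2 fold change of LP over NP (x axis) of each of the 9 genes under the other settings, filled red where the adjusted p-value was below 0.05, with a diamond for scaling to the other endothelial genes and a black bar at the reported value. Emcn, Kdr, Flt1 and Tek are filled throughout, whereas Tie1 and Vegfa are filled under part of the settings only.

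Genes of vessel subtypes were read next. Of 11 Notch pathway and arterial genes that passed the filter, 2 rose and 1 fell, with a median log2FC of -0.01. These 3 calls are 27.3% of the list, close to the 27.0% called among all genes. Jag1, a Notch ligand, had 0.31 (adjusted p = 0.0236) and Efnb2, the arterial ephrin, 0.33 (adjusted p = 0.0277). Hey1, a Notch target, had -1.20 (adjusted p = 0.0253) on 6 to 21 reads per sample. None of the 3 held with DESeq2 (adjusted p = 0.189, 0.149 and 0.13 for Jag1, Efnb2 and Hey1) or with replicates 2 and 3 summed (0.0547, 0.0881 and 0.0709 by edgeR). The libraries whose removal ended the call were NP replicate 2 and LP replicates 1 and 3 for Jag1, NP replicate 1 and LP replicates 2 and 3 for Hey1, and NP replicates 2 and 3 and LP replicates 1 and 3 for Efnb2, with adjusted p-values up to 0.154.

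Among 6 lymphatic genes, Lyve1, the hyaluronan receptor of lymphatic vessels and some macrophages, had 42, 33 and 38 reads (NP) and 15, 26 and 25 reads (LP), and fell by 0.92 on the log2 scale (SE 0.23, adjusted p = 0.00566). Ccl21, a chemokine of lymphatic endothelium, rose by 0.27 (adjusted p = 0.0132, and 0.11 with DESeq2), and without NP replicate 3 or LP replicate 2 it did not pass (adjusted p up to 0.0845 by edgeR). The other 4, Prox1, Pdpn, Reln and Mmrn1, did not pass the test, and the median of the list was -0.07. The calls made up 33.3% of this list, against 27.0% of all genes tested. The 5 macrophage markers had summed levels of 125 to 141 CPM in NP and 142 to 164 CPM in LP, and 0 of the 5 passed the test by edgeR (2 at an unadjusted p-value below 0.05, and 0 with DESeq2). The log2FC was above 0 in 5 of the 5, with a median of 0.26, and 1 was called higher with replicates 2 and 3 summed, 1 with the block and 3 with scaling to the endothelial genes. The part of macrophages in the Lyve1 value was not tested.

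Mural cells wrap the endothelium. Of 11 mural cell genes, Rgs5, a pericyte gene, fell from 74.6 ± 5.3 to 55.9 ± 1.4 CPM (SD, n = 2), log2FC -0.40 (adjusted p = 0.000699 by edgeR). Anpep, an aminopeptidase found on pericytes and on other cells, rose by 0.23 (adjusted p = 0.00638, and 0.062 with replicates 2 and 3 summed). The other 9 did not pass, among them Pdgfrb, the receptor that recruits pericytes, at -0.07 (adjusted p = 0.611 by edgeR). The calls made up 18.2% of this list, against 27.0% of all genes tested. The summed mural level was 758 CPM in NP replicate 1 and 664 CPM in LP replicate 1, against up to 2147 CPM in the other samples, and Myh11, the smooth muscle myosin, had a log2FC of -0.05 with a SE of 0.56. With the replicate number as a block, 3 mural genes fell in place of 1, Rgs5 being joined by Mcam (-0.18) and Acta2 (-0.14).

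**Figure D4:**
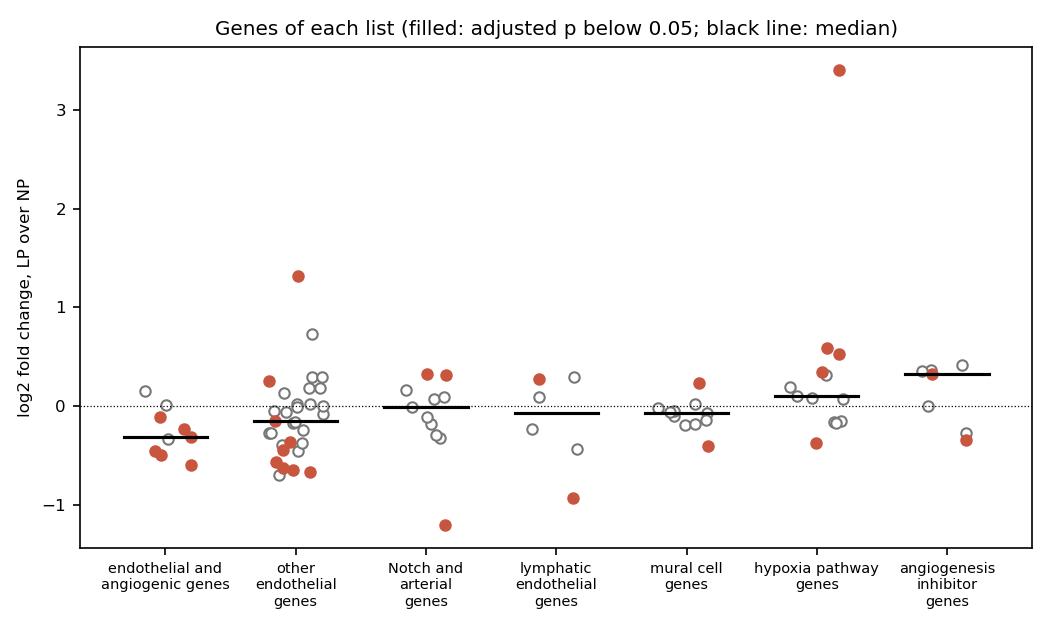
Log2 fold change of LP over NP (y axis) of each gene that passed the filter in the 9 measured genes and 6 further lists, filled red where the adjusted p-value was below 0.05, with a black line at each median. The medians run from -0.31 for the endothelial and angiogenic genes to 0.33 for the angiogenesis inhibitors, and the point at 3.41 is Egln3.

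Vegfa is a classic target of hypoxia-inducible factors, so genes of that pathway were read beside it. Of 13 that passed the filter, 4 rose and 1 fell, with a median log2FC of 0.11. The calls made up 38.5% of this list, against 27.0% of all genes tested, of which 15.3% rose and 11.7% fell. Egln3, a prolyl hydroxylase that is itself induced by the factors, had 14, 11 and 12 reads (NP) and 130, 151 and 158 reads (LP), log2FC 3.41 (SE 0.17, adjusted p = 3.23e-11). Pgk1, a glycolytic enzyme, rose by 0.35 (adjusted p = 0.000192), Bnip3, a mitochondrial receptor for autophagy, by 0.59 (adjusted p = 0.000628) and Pfkfb3, a glycolytic regulator, by 0.53 (adjusted p = 0.00176) by edgeR. Slc2a1, the glucose transporter GLUT1 and a widely used target, had 0.08 (adjusted p = 0.454), and Adm, adrenomedullin, -0.15 (adjusted p = 0.683). The factors themselves, Hif1a at -0.16 and Epas1 at 0.07, did not pass the test. Vhl, which marks Hif1a for degradation, was the 1 gene that fell, by 0.37 (adjusted p = 0.01 by edgeR, and 0.122 with DESeq2).

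Of 7 genes of angiogenesis inhibitors, Thbs1, thrombospondin 1, rose by 0.33 (adjusted p = 0.0221) and Serpinf1, pigment epithelium-derived factor, fell by 0.34 (adjusted p = 0.0125) on the log2 scale by edgeR. These calls are 28.6% of the list, close to the 27.0% called among all genes. The Thbs1 call was lost with DESeq2 (adjusted p = 0.152) and without NP replicate 1, NP replicate 3 or LP replicate 3 (up to 0.137), and that of Serpinf1 without NP replicate 3 (0.085). The other 5 did not pass, with Col18a1, the source of endostatin, at 0.37 (adjusted p = 0.104, and 5.45e-08 with the replicate number as a block).

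Markers of other cell types were also read, and among these lists the skeletal muscle markers changed most (median log2FC 7.94). Beside the counts of markers called, 15.3% of all genes tested rose and 11.7% fell. Of 13 skeletal muscle markers that passed the filter, 12 rose, and the summed level of the whole list (15 genes) was 26.1 to 76.3 CPM in NP and 4974 to 5273 CPM in LP. Tnnc2, fast troponin C, had 22, 14 and 26 reads (NP) and 4554, 4532 and 4641 reads (LP). Myh1 and Mylpf were at 0 reads in each NP sample, and Acta1 was at 0 in replicate 1 of both groups. Skeletal muscle holds capillaries and expresses Vegfa, Vegfb, Egln3 and glycolytic genes, and its part in the values given here was not tested. With TMM factors computed without the muscle markers and without the genes past the 2-fold criteria, 5 of the 9 genes still fell, Vegfa having an adjusted p-value of 0.0948 by edgeR.

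C cells and parathyroid tissue, both neighbours of the follicles, were represented among the reads too. The summed C cell markers measured 13794 to 14773 CPM in NP and 12205 to 12966 CPM in LP, with 1 of 5 called lower (Calca, -0.32) and 1 higher (Scg2, 0.42). The summed parathyroid markers measured 4458 to 4832 CPM in NP and 3715 to 4031 CPM in LP, with 1 of 3 called lower (Pth, -0.30). The other 2, Gcm2 and Casr, had a log2FC above 0 and did not pass the test, and the median of the list was 0.10. With the replicate number as a block, 1 was called higher and 1 lower. With scaling to the endothelial genes, 2 were called higher and 1 lower. Red blood cell markers summed to 216 to 237 CPM in NP and 194 to 203 CPM in LP, with Hbb at -0.23 (adjusted p = 0.00467) and Hba1 at -0.42 (adjusted p = 0.0332) called lower by edgeR. The other 2 of the 4 markers, among them Hba2, had a log2FC above 0 and did not pass the test. The median log2FC of that list was 0.05, so its genes did not move in 1 direction. The Hba1 call was lost without NP replicate 1, NP replicate 2, LP replicate 2 or LP replicate 3 (up to 0.148). It was also lost with DESeq2, with replicates 2 and 3 summed and with scaling to the endothelial genes (adjusted p up to 0.196). Under that scaling 0 red blood cell markers fell and 1 rose. The part of C cells, parathyroid tissue and red blood cells in the endothelial values was not tested either. Of the follicular markers, 3 of 11 rose (Nkx2-1, Duox2 and Duoxa2) and 3 fell (Slc5a5, Tshr and Dio1), with Tg at 0.06 and a summed level of 231493 to 250028 CPM in NP and 241659 to 258282 CPM in LP. The Duox2 call was lost without LP replicate 1 (adjusted p = 0.0626) and with DESeq2 (0.114).

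Adipocyte markers summed to 105 to 127 CPM in NP and 111 to 139 CPM in LP, and 0 of the 4 that passed the filter were called (0 at an unadjusted p-value below 0.05 by edgeR, and 0 with DESeq2). With replicates 2 and 3 summed, 1 gene of the list was called lower, though it was not among these 4. B cell markers had at most 4 reads per sample in sum.

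**Figure D5:**
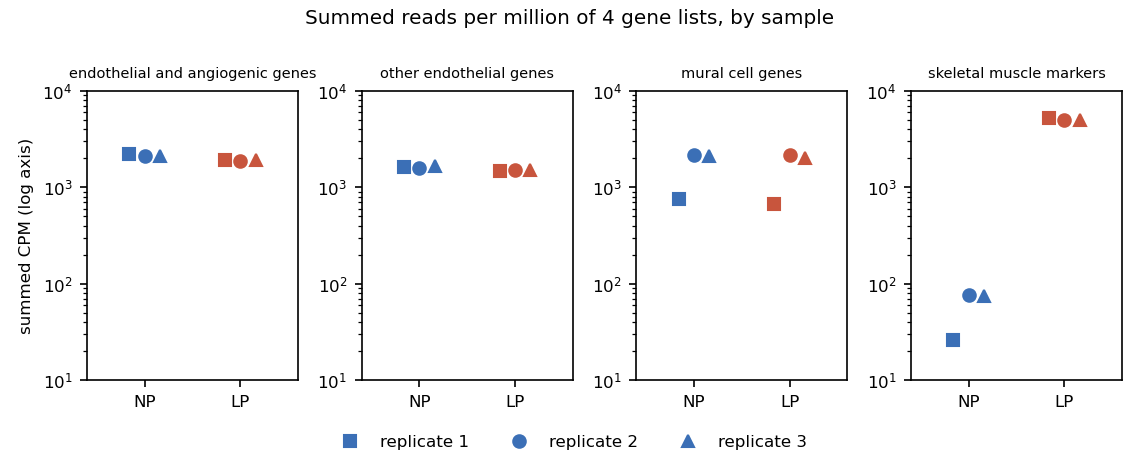
Summed CPM (y axis, log scale) of 4 gene lists in each NP (blue) and LP (red) sample, with symbols for the replicates. The 9 genes, mostly Vegfa, sum to 2117 to 2238 CPM in NP and 1888 to 1929 CPM in LP, a gap that looks small on this axis. The other endothelial genes sum to 1591 to 1651 CPM in NP and 1469 to 1525 CPM in LP. The mural genes are low in replicate 1 of both groups, and the skeletal muscle markers rise from at most 76.3 CPM in NP to at least 4974 CPM in LP.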

How the data were processed

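RNA was sequenced from thyroids of 3 NP and 3 LP rats (day 18). Per the labels and the study's methods, the authors mapped reads to rn5 with TopHat 1.4.0 and counted them with HTSeq-count on Ensembl release 81, and the deposited values are raw read counts per gene, without normalization. The rows carry transcript identifiers, and the rule that picked them is not given in the sources used here.

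The analysis used edgeR 4.0.16 under R 4.3.3 (glmQLFit, glmQLFTest, TMM, filterByExpr), with DESeq2 1.42.0 as an alternative. Groups came from the sample titles. Standard errors (SE) were derived from the log2 fold change and the F statistic, as its size over root F, and the 95% interval uses the degrees of freedom of the test. The edgeR comparison of LP with NP was tested on simulated counts, and the alternative fits were not. It recovered 47.1% of 87 genes given a log2 change of size 0.5, and 86.2% of 109 genes given a change of size 1. A gene with a smaller change can thus fail the test. The simulated samples were independent with 1 spread for all genes, unlike replicates 2 and 3 here. Sample pairs were compared by chi-square, leaving out genes under 10 reads. Deviations from the group means were compared between same-numbered samples over 7943 genes (correlations 0.578, 0.305 and 0.273 for replicates 1, 2 and 3), and 2 alternative fits took these numbers as blocks. NP replicate 2 with LP replicate 3 (0.300) and NP replicate 3 with LP replicate 2 (0.274) correlated about as well, so the data set replicate 1 apart from the other two and do not pair numbers 2 and 3. The labels state no pairing.

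The genes and lists were chosen with earlier results of these data known. By rule the text names the 10 genes, the VEGF and angiopoietin list, up to 4 called genes with the smallest p of each vascular list, and, of the markers of other cell types, those at 0 and up to 3 with the highest CPM. Genes named outside this rule (Adm, Slc2a1, Hif1a, Epas1, Vhl, Col18a1, Plvap, Pdgfrb, Mcam, Robo4, Scg2, Nkx2-1, Duox2, Duoxa2, Slc5a5, Tshr, Dio1, the low smooth muscle genes and 4 lymphatic genes) were chosen after their values were seen. Alternatives were other filters, scalings, DESeq2, a replicate block, replicates 2 and 3 summed, single samples left out and an adjusted p below 0.01.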

Additional observations from a re-analysis of the deposited data

How the results depend on the processing

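The number of genes that fell was 6 of 9 and stayed between 4 and 6 over 17 alternatives (4 to 5 with single samples left out), and the number that rose was 0 throughout. Emcn, Kdr, Flt1 and Tek kept their direction and their call in 16 of 16 settings, Tie1 in 11 and Vegfa in 7. The median log2 fold change of the 9 genes, -0.31, was -0.26 with a filter at a mean of 50 reads (over 8 genes, Angpt2 not passing it), -0.38 with library totals alone, -0.29 with TMM computed without muscle markers and genes past the criteria, -0.19 with library size from the other endothelial genes, and between -0.37 and -0.26 with single samples left out. Cdh5, at 0.01, reversed to -0.058 with library totals alone and ran from -0.052 (without NP replicate 1) to 0.11 (without NP replicate 2) with single samples left out, and Vegfa reversed to 0.0101 with library size from the other endothelial genes. The cause was not tested. With the replicate number as a block, 6 of the 9 genes fell and 0 rose, and no call among them changed. With replicates 2 and 3 summed, 5 fell, and with the block added, 6. The block lowered the coefficient of variation from 0.0645 to 0.0131, so its p-values rest largely on counting noise. Of 238 counts over the 7 vascular lists under the alternatives, 177 stayed within 1.5 times and 61 did not. Depth limits Angpt2, Angpt1, Figf, Hey1 and Robo4, which had few reads.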
